A study of Caenorhabditis elegans with 9 samples.

Results

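Whole Caenorhabditis elegans worms under RNA interference (RNAi) against H28O16.1 were compared directly with worms under RNAi against B0395.3. The comparison takes 6 of the 9 libraries of the series, chosen by their labelled RNAi treatment, with 3 libraries of H28O16.1 and 3 of B0395.3. All worms were N2 hermaphrodites, the wild-type laboratory strain, 5 days old, so both groups are knockdowns and neither is a control. The other 3 libraries, from N2 hermaphrodites of that age on the empty vector L4440, entered no test here, and their levels are given as a description. The labels set the groups apart by the RNAi construct alone. The sources used here do not give when RNAi began, how many worms were pooled or whether replicates were separate cultures. P-values therefore measure the spread between libraries, and that spread may be technical.

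H28O16.1 is the sequence name of atp-1, which encodes the alpha subunit in the catalytic head of the mitochondrial ATP synthase. That enzyme uses the proton gradient built by the respiratory chain to make ATP from ADP. B0395.3 is a relative of the carnitine acyltransferases, enzymes that move acyl groups between coenzyme A and carnitine. Carnitine carries long fatty acyl groups into mitochondria, where they are oxidised and feed electrons to the same respiratory chain. Adult hermaphrodites carry oocytes and fertilised embryos in the body, so RNA of whole worms holds maternal and embryonic transcripts beside those of intestine, muscle, epidermis and neurons.

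The deposited table gives counts per gene, with library totals of 31236614 to 40218034 in H28O16.1, 34805871 to 40990685 in B0395.3 and 37279334 to 40227801 in L4440. Levels are given as CPM, that is counts after the libraries were brought to the same size, and they depend on transcript length, so they are compared between groups and not between genes. Values of single libraries are given in the order of replicates 1 to 3, a single CPM value of a group is the mean of its 3 libraries, and ± after a log2 fold change is the standard error. A gene is said to have risen or fallen where its level in H28O16.1 differed from that in B0395.3 at an adjusted p under 0.05 in edgeR's quasi-likelihood test over all 14379 genes that passed the filter on low counts. Principal components of the 6 libraries put 91.7% of the variance on an axis that split the groups. On the next axis, with 4.03%, replicate 3 of H28O16.1 scored 14.1 and its fellows -9.82 and -4.13. The biological coefficient of variation was 5.15%, so differences well under 2-fold could pass the test. Every tissue list described below had counts in all 9 libraries, and the summed level of 5 measured male markers was 2.68 to 3.74 CPM in H28O16.1, 2.57 to 3.29 CPM in B0395.3 and 2.25 to 2.48 CPM in L4440.

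Each construct lowered its own target relative to the other knockdown. atp-1, on chromosome I (WBcel235, 12652277 to 12654655, plus strand), had 70.9, 67.8 and 76.4 CPM in the H28O16.1 libraries, against 1786, 1829 and 1729 CPM in the B0395.3 libraries. The groups lay far apart (log2 fold change -4.63 with SE 0.05, adjusted p = 1.77e-12), and L4440 libraries held 1989, 2029 and 1886 CPM. B0395.3, on the minus strand of chromosome X (16035036 to 16040257, 3 annotated transcripts), had 25.1, 23.97 and 28.8 CPM in the H28O16.1 libraries, against 12.6, 16.7 and 12.97 CPM in the B0395.3 libraries. Here too no library overlapped (log2 fold change 0.89 with SE 0.11, adjusted p = 3.39e-05). The L4440 level of B0395.3 was 34.02 ± 1.81 CPM (SD, n = 3), above both knockdowns.

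**Figure D1:**
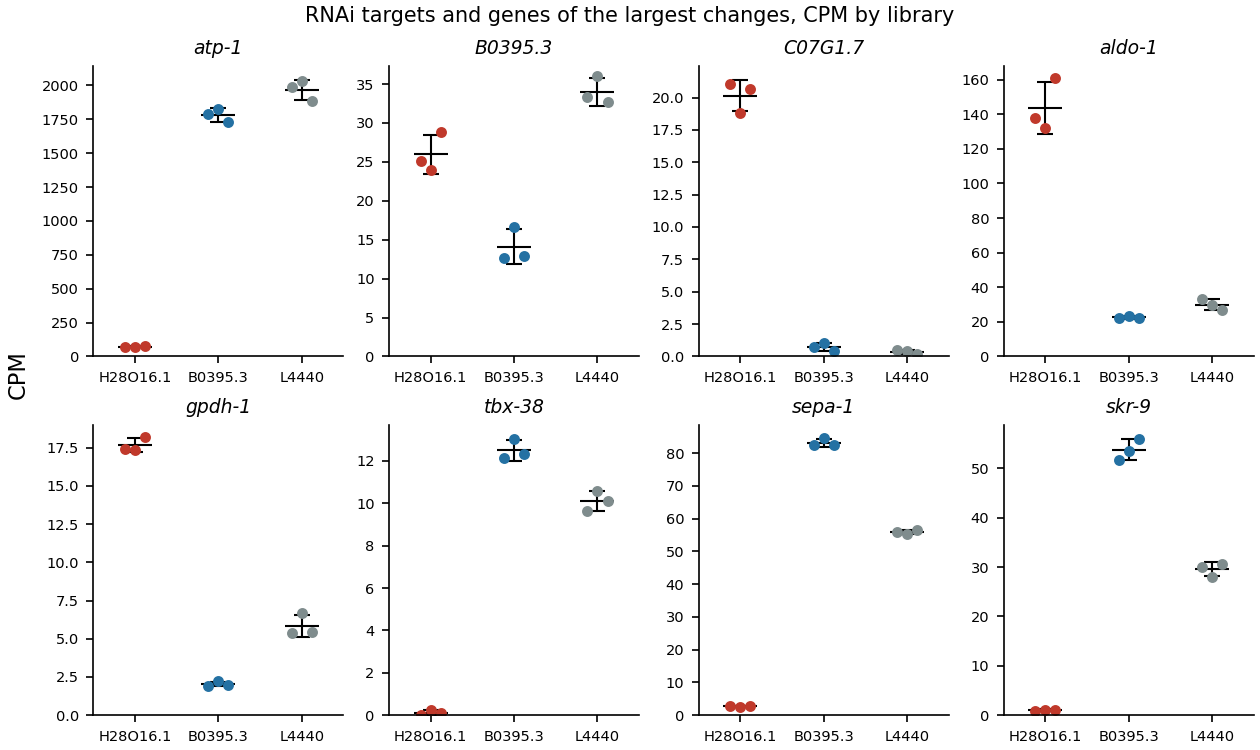
CPM (linear axis from 0) in each of the 3 libraries of H28O16.1, B0395.3 and L4440 for both RNAi targets and 6 genes of the largest changes, with bars at the mean and whiskers of 1 SD. atp-1 is low in H28O16.1 alone, at a mean of 71.7 CPM, and tbx-38 and sepa-1 are near 0 in H28O16.1 and at 12.5 and 83.2 CPM in B0395.3.

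The 2 knockdowns differed in most genes tested. Of 14379 genes, 4396 rose and 4453 fell, which is 30.6% and 31% of all tested and 61.5% together. In 9660 genes (67.2%) the 3 H28O16.1 libraries did not overlap the 3 B0395.3 libraries, and 174 called genes did overlap. Most differences were small, with a median absolute log2 fold change of 0.31 and a median of 0.01. Changes over 2-fold were seen in 836 genes that rose (5.81%) and 1331 that fell (9.26%). Past 4-fold the counts were 125 and 659, so the large changes lay mainly on the side lower in H28O16.1. On chromosome X, 24% of 2043 genes rose and 36.9% fell (median -0.09), while on chromosome V 33.5% of 2799 rose and 25.8% fell (median 0.06). Among 484 annotated pseudogenes 91 rose and 220 fell, with a median of -0.30.

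**Figure D2:**
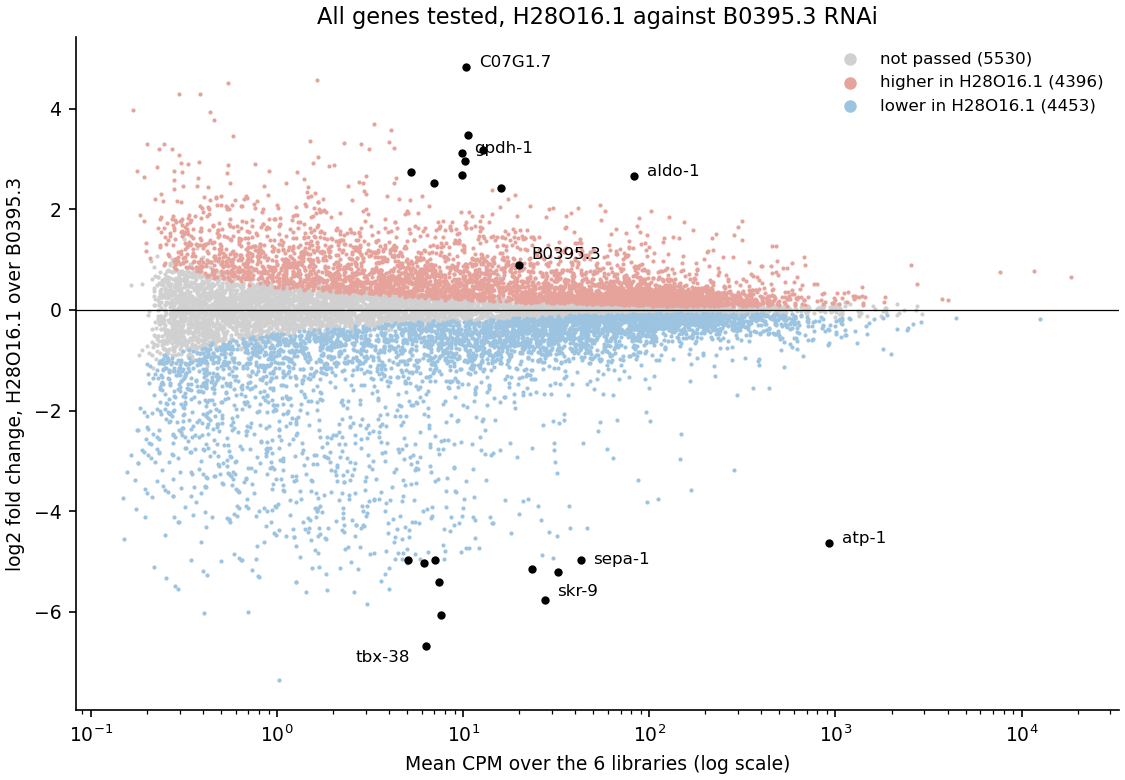
log2 fold change of H28O16.1 over B0395.3 against mean CPM over the 6 libraries (log axis) for each of the 14379 genes tested, coloured by call, with the targets and the 20 genes of largest change as black points. The 659 genes that fell over 4-fold form a cloud in the lower part, while 125 genes passed 4-fold in the upper part.

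The 10 largest rises among genes averaging 5 CPM or more, with no overlap between groups, ran from 2.42 to 4.82 on the log2 scale. C07G1.7, at the top, had 21.02, 18.8 and 20.7 CPM in H28O16.1, against 0.701, 1.07 and 0.417 CPM in B0395.3 (log2 fold change 4.82 with SE 0.18, adjusted p = 4.25e-09). In L4440, C07G1.7 had 0.473, 0.433 and 0.153 CPM. It was near 0 wherever atp-1 was not targeted. F57H12.6 had 17.8, 21.3 and 19.3 CPM in H28O16.1, against 1.38, 2.42 and 1.54 CPM in B0395.3. In L4440, F57H12.6 had 5.96, 6.42 and 6.19 CPM. ora-1 had 20.1, 21.7 and 26.7 CPM in H28O16.1, against 2.32, 3.2 and 2.16 CPM in B0395.3. In L4440, ora-1 had 8.3, 11.02 and 10.2 CPM. Every H28O16.1 library was above all others, and L4440 lay between the knockdowns. gpdh-1 encodes a glycerol-3-phosphate dehydrogenase that is known to be induced when worms accumulate glycerol under osmotic stress. It had 17.4, 17.4 and 18.2 CPM in the H28O16.1 libraries, against 1.93, 2.22 and 1.99 CPM in the B0395.3 libraries (log2 fold change 3.11 with SE 0.09, adjusted p = 6.93e-10). hmit-1.1, a proton-coupled myo-inositol transporter gene that also responds to osmotic stress, had 16.7, 16.7 and 17.5 CPM in the H28O16.1 libraries, against 2.9, 2.19 and 2.72 CPM in the B0395.3 libraries (log2 fold change 2.69 with SE 0.10, adjusted p = 4.78e-09). Neither gene had overlapping groups, and L4440 lay between at 5.84 CPM for gpdh-1 and 5.04 CPM for hmit-1.1. aldo-1, a fructose-bisphosphate aldolase gene of glycolysis, had 138, 132 and 161 CPM in H28O16.1, against 22.5, 23.6 and 21.96 CPM in B0395.3 (log2 fold change 2.66 with SE 0.07, adjusted p = 4.11e-10). In L4440, aldo-1 had 32.9, 29.8 and 26.7 CPM. The H28O16.1 libraries stood far above the other 6.

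The remaining rises of that set were irg-6, an infection response gene (18.2 CPM in H28O16.1 against 2.33 in B0395.3, log2 fold change 2.96 ± 0.15), lbp-8, which encodes a lipid chaperone that carries a lipid signal out of lysosomes (9.18 CPM in H28O16.1 against 1.36 in B0395.3, log2 fold change 2.75 ± 0.15), the C-type lectin gene clec-258 (11.9 CPM in H28O16.1 against 2.06 in B0395.3, log2 fold change 2.52 ± 0.14) and F48E3.2 (26.9 CPM in H28O16.1 against 5.03 in B0395.3, log2 fold change 2.42 ± 0.09). lbp-8 was the member of these 10 whose L4440 level, 10.8 CPM, lay above both knockdowns, so its low value was in B0395.3. C07G1.7 was the member whose L4440 level lay below both. For the other 8, L4440 lay between the knockdowns. 15.6% of the exonic length of F48E3.2 and 5.6% of that of gpdh-1 overlaps a gene on the other strand, and the library kit does not mark strand.

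The 10 largest falls included an early zygotic transcription factor gene, Skp1-related, F-box and BTB genes and an autophagy substrate, and L4440 lay between the knockdowns for all 10. tbx-38, a T-box transcription factor gene that acts in early embryonic fate decisions, had 0.0265, 0.223 and 0.124 CPM in H28O16.1, against 12.11, 13.04 and 12.3 CPM in B0395.3. In L4440, tbx-38 had 9.63, 10.6 and 10.1 CPM. It was all but undetected in H28O16.1 (log2 fold change -6.67 with SE 0.23, adjusted p = 2.36e-09). The value ran from -6.19 without H28O16.1 replicate 1 to -7.29 without H28O16.1 replicate 2. T22F3.11 had 0.319, 0.255 and 0.0992 CPM in H28O16.1, against 11.9, 17.3 and 15.3 CPM in B0395.3 (log2 fold change -6.06 with SE 0.26, adjusted p = 1.09e-08). In L4440, T22F3.11 had 0.807, 1.57 and 1.3 CPM, so B0395.3 was far above L4440 as well. skr-9 and skr-8 encode relatives of Skp1, the adaptor that joins F-box proteins to cullin ubiquitin ligases. skr-9 had 0.823, 1.15 and 1.02 CPM in the H28O16.1 libraries, against 51.7, 53.6 and 56.0 CPM in the B0395.3 libraries (log2 fold change -5.76 with SE 0.09, adjusted p = 1.16e-11). The near copy skr-8 had 1.59, 2.04 and 1.51 CPM in the H28O16.1 libraries, against 61.2, 63.1 and 64.4 CPM in the B0395.3 libraries (log2 fold change -5.21 with SE 0.09, adjusted p = 1.16e-11). The counts of these copies may share reads. fbxb-17 (0.341 CPM in H28O16.1 against 14.5 in B0395.3, log2 fold change -5.40 ± 0.14) and fbxb-119 (0.357 CPM in H28O16.1 against 11.9 in B0395.3, log2 fold change -5.04 ± 0.14) encode F-box proteins, btb-11 (0.432 CPM in H28O16.1 against 13.6 in B0395.3, log2 fold change -4.97 ± 0.13) a BTB domain protein, and sdz-28 (1.28 CPM in H28O16.1 against 45.6 in B0395.3, log2 fold change -5.14 ± 0.08) belongs to genes named for zygotic expression that depends on the maternal factor SKN-1. K05F6.4 completed the set (0.303 CPM in H28O16.1 against 9.84 in B0395.3, log2 fold change -4.97 ± 0.16). sepa-1 encodes a protein that binds P granule components in embryos and is itself removed by autophagy. It had 2.65, 2.48 and 2.8 CPM in H28O16.1, against 82.3, 84.5 and 82.6 CPM in B0395.3 (log2 fold change -4.97 with SE 0.06, adjusted p = 1.77e-12). In L4440, sepa-1 had 56.0, 55.3 and 56.6 CPM, and all 3 groups were separate from each other.

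Genes switched on in the early embryo were mostly lower in H28O16.1. Among early zygotic genes 4 of 41 members rose, 32 fell and 5 did not pass the test, with a median log2 fold change of -3.90, and 31 fell over 2-fold, where 9.26% of all genes tested did. The list names 52 genes, and the others had too few counts to be tested. vet-1, named for very early transcription, had 4.75, 4.71 and 4.41 CPM in the H28O16.1 libraries, against 66.5, 69.7 and 71.3 CPM in the B0395.3 libraries (log2 fold change -3.90 with SE 0.06, adjusted p = 1.07e-11). dsl-2, of the Notch ligand family, had 2.95, 2.58 and 2.58 CPM in the H28O16.1 libraries, against 58.9, 63.6 and 61.9 CPM in the B0395.3 libraries (log2 fold change -4.50 with SE 0.07, adjusted p = 1.16e-11). In each, every B0395.3 library was more than 10 times above every H28O16.1 library, and L4440 held 55.9 and 46.4 CPM. In RNA of whole worms, fewer cells of a type and less RNA per cell cannot be told apart, which applies to every group of genes tied to a stage or tissue below.

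Adaptors of cullin ubiquitin ligases moved the same way in some families and not in others. Among Skp1-related genes 1 of 19 members rose, 12 fell and 6 did not pass the test, with a median log2 fold change of -0.72, and 9 fell over 2-fold, including skr-7 (15.2 CPM in H28O16.1 against 159 in B0395.3, log2 fold change -3.39 ± 0.04). Among F-box genes 30 of 245 members rose, 146 fell and 69 did not pass the test, with a median log2 fold change of -1.06, and 126 falls and 6 rises over 2-fold. Of all genes tested, 9.26% fell and 5.81% rose over 2-fold. The falls of F-box genes were unequal across subfamilies. 92 of 94 measured genes fell in the fbxb subfamily and 0 rose (by edgeR; also 0 at an unadjusted p under 0.05 and by DESeq2 and limma-voom). Their summed level was 33.7 to 41.1 CPM in H28O16.1 and 371 to 385 CPM in B0395.3. The filter keeps genes with enough counts in 1 group alone, so members that passed only through B0395.3 could hardly be called higher. DESeq2 and limma-voom used the same filtered genes, so their counts of 0 add little. This limit holds for every list and family given. In fbxc 27 of 34 measured genes fell and 2 rose. In fbxa 27 of 117 measured genes fell and 28 rose, and these subfamilies were set apart after the values were seen. fbxb-41 is an example (0.544 CPM in H28O16.1 against 15.4 in B0395.3, log2 fold change -4.80 ± 0.13). Many fbxb genes are near copies of each other, so single values may share reads. Among genes with MATH and BTB domains, which serve as substrate adaptors of CUL-3 ligases, 22 of 70 members rose, 16 fell and 32 did not pass the test, with a median log2 fold change of 0.01. The 3 smallest p-values belonged to falls, in btb-10 (0.592 CPM in H28O16.1 against 15.1 in B0395.3, log2 fold change -4.68 ± 0.12), btb-11 and bath-31 (0.262 CPM in H28O16.1 against 7.41 in B0395.3, log2 fold change -4.79 ± 0.16).

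Most measured histone genes fell, while 31% of all genes tested did. Among core histone genes 2 of 22 members rose, 17 fell and 3 did not pass the test, with a median log2 fold change of -0.68. Of the 71 listed, 29 had no count in any of the 9 libraries. Most replication-dependent histone mRNAs lack poly(A) tails, and how reads of near-identical genes were counted is unknown. Why so few were measured was not tested. his-72, a histone H3.3 gene, stood at 221 ± 7.41 CPM in H28O16.1 and 429.8 ± 13.1 CPM in B0395.3 (SD, n = 3 each; log2 fold change -0.96 with SE 0.04, adjusted p = 4.24e-09). his-71, another H3.3 gene, also fell (10.2 CPM in H28O16.1 against 21.3 in B0395.3, log2 fold change -1.06 ± 0.07), and so did his-32 (0.902 CPM in H28O16.1 against 4.24 in B0395.3, log2 fold change -2.25 ± 0.16). Of its members, 1 rose without H28O16.1 replicate 3 or B0395.3 replicate 2 or 3 and 10 fell at a minimum count of 50. Among linker histone genes, whose products bind DNA between nucleosomes, 1 of 9 members rose, 7 fell and 1 did not pass the test, with a median log2 fold change of -1.2. his-24 had 4.19, 4.26 and 4.71 CPM in H28O16.1, against 88.9, 86.9 and 90.1 CPM in B0395.3 (log2 fold change -4.33 with SE 0.06, adjusted p = 3.24e-12). In L4440, his-24 had 46.8, 37.8 and 38.3 CPM. hil-3 had 2.55, 2.83 and 2.85 CPM in H28O16.1, against 48.8, 50.2 and 50.4 CPM in B0395.3 (log2 fold change -4.18 with SE 0.07, adjusted p = 1.16e-11). In L4440, hil-3 had 20.7, 19.5 and 20.4 CPM. In both, B0395.3 was the highest group and H28O16.1 the lowest, with no overlap. hil-2 followed (14.5 CPM in H28O16.1 against 112 in B0395.3, log2 fold change -2.95 ± 0.07). 18.9% of the exonic length of his-24 overlaps an antisense gene.

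Among autophagy genes 2 of 26 members rose, 18 fell and 6 did not pass the test, with a median log2 fold change of -0.28, and the other members that led the list beside sepa-1 encode adaptors that bring cargo to autophagosomes. epg-2 had 12.5, 15.2 and 17.7 CPM in the H28O16.1 libraries, against 206, 207 and 206 CPM in the B0395.3 libraries (log2 fold change -3.76 with SE 0.09, adjusted p = 1.34e-10), and epg-7 stood at 42.1 ± 2.17 CPM in H28O16.1 and 74.5 ± 0.96 CPM in B0395.3 (SD, n = 3 each). The summed level of the list was 1963 to 1972 CPM in H28O16.1, 2665 to 2676 CPM in B0395.3 and 2398 to 2404 CPM in L4440. Over all genes tested, 30.6% rose and 31% fell. Recounted, 1 rose without H28O16.1 replicate 1 or B0395.3 replicate 1 or 2 or 3 or at a minimum count of 50.

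**Figure D3:**
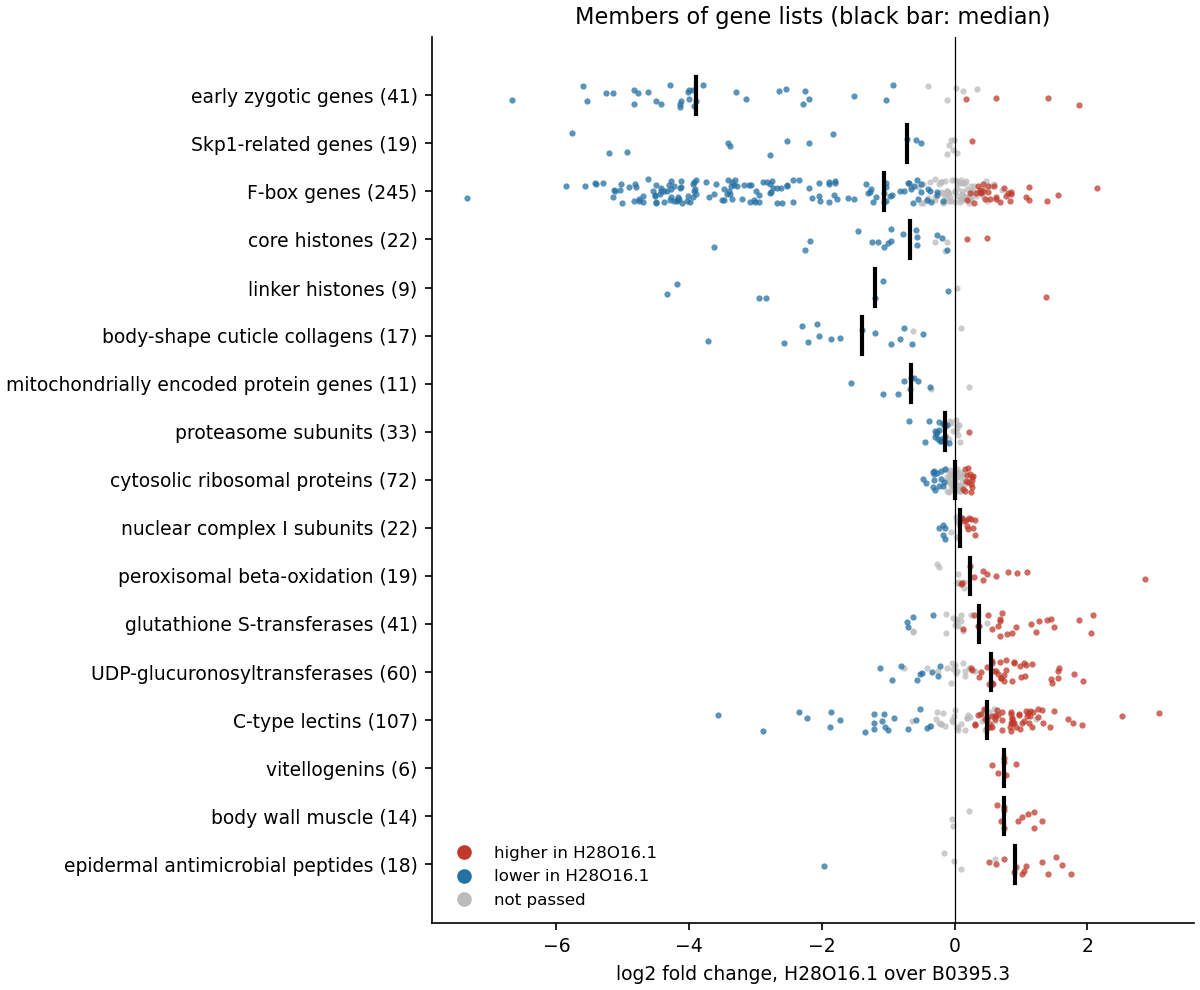
log2 fold change of H28O16.1 over B0395.3 for each measured member of 17 gene lists (number of members in brackets), coloured by call, with a black bar at the list's median. The medians of early zygotic, histone and body-shape collagen genes lie left of 0, with some members right of it. Ribosomal proteins lie around 0, and the medians of vitellogenins and body wall muscle genes lie right of it, at 0.74 and 0.75.

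Lists of germ line genes had medians close to 0. Among oocyte and maternal regulators 9 of 36 members rose, 15 fell and 12 did not pass the test, with a median log2 fold change of -0.05. The leading members fell: cyb-1, a cyclin B gene (439 CPM in H28O16.1 against 701 in B0395.3, log2 fold change -0.67 ± 0.03), oma-2, which encodes an oocyte maturation factor (599 CPM in H28O16.1 against 900.4 in B0395.3, log2 fold change -0.59 ± 0.03), and ifet-1, a translational repressor gene (692 CPM in H28O16.1 against 1121 in B0395.3, log2 fold change -0.70 ± 0.04). Among P granule and germ line regulators 4 of 26 members rose, 14 fell and 8 did not pass the test, with a median log2 fold change of -0.10. meg-4 (49.2 CPM in H28O16.1 against 82.2 in B0395.3, log2 fold change -0.74 ± 0.04) and meg-3 (86.0 CPM in H28O16.1 against 132 in B0395.3, log2 fold change -0.62 ± 0.04) encode proteins that organise P granules in the embryo, and gld-4 a poly(A) polymerase (333 CPM in H28O16.1 against 455 in B0395.3, log2 fold change -0.45 ± 0.03). Meiotic axis and synapsis genes were split, and 10 of 26 members rose, 6 fell and 10 did not pass the test, with a median log2 fold change of 0.01. syp-6 of the synaptonemal complex fell (109.8 CPM in H28O16.1 against 132 in B0395.3, log2 fold change -0.26 ± 0.03), while the cohesin gene coh-4 (50.9 CPM in H28O16.1 against 40.4 in B0395.3, log2 fold change 0.33 ± 0.04) and the axis gene him-3 (169 CPM in H28O16.1 against 139.9 in B0395.3, log2 fold change 0.27 ± 0.04) rose. Among these, 6 rose without B0395.3 replicate 2. Eggshell genes were split as well, and 4 of 12 members rose, 3 fell and 5 did not pass the test, with a median log2 fold change of -0.03. The chondroitin proteoglycan gene cpg-2 (2353 CPM in H28O16.1 against 2852 in B0395.3, log2 fold change -0.28 ± 0.04) and cbd-1, of the vitelline layer (2640.1 CPM in H28O16.1 against 3146 in B0395.3, log2 fold change -0.25 ± 0.04), fell, and egg-3 rose (243 CPM in H28O16.1 against 210.0 in B0395.3, log2 fold change 0.21 ± 0.03). Few sperm genes had counts enough, and of 73 listed 4 of 24 members rose, 4 fell and 16 did not pass the test, with a median log2 fold change of -0.10. spe-41, a sperm calcium channel gene, was the largest rise named here (7.9 CPM in H28O16.1 against 2.02 in B0395.3, log2 fold change 1.97 ± 0.11), with smaller changes in spe-39 (146 CPM in H28O16.1 against 105 in B0395.3, log2 fold change 0.47 ± 0.04) and spe-5 (13.1 CPM in H28O16.1 against 19.8 in B0395.3, log2 fold change -0.59 ± 0.07). In refits, 2 rose without H28O16.1 replicate 2 or B0395.3 replicate 1 or 2 or 3.

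Yolk protein genes were higher in H28O16.1. Vitellogenins are the yolk precursors that the adult intestine makes and exports to oocytes, and all 6 rose, by 0.56 to 0.93 on the log2 scale. Their share of all counts was 4.86 ± 0.288% in H28O16.1, 3.0 ± 0.0706% in B0395.3 and 4.41 ± 0.0881% in L4440 (SD, n = 3 each), so B0395.3 was the low group. vit-2 had 14597, 13999 and 15381 CPM in H28O16.1, against 8215, 8746 and 8633 CPM in B0395.3 (log2 fold change 0.78 with SE 0.05, adjusted p = 4.88e-07). In L4440, vit-2 had 11972, 12226 and 11840.1 CPM. vit-6 had 22539, 21619.8 and 23648 CPM in H28O16.1, against 14084, 14871 and 14201 CPM in B0395.3 (log2 fold change 0.65 with SE 0.06, adjusted p = 2.64e-06). In L4440, vit-6 had 20414, 21530.5 and 20128 CPM. H28O16.1 libraries were above all others in vit-2 and vit-6, the first by a wider margin. vit-1 (770.4 CPM in H28O16.1 against 405 in B0395.3, log2 fold change 0.93 ± 0.05), vit-3 (568 CPM in H28O16.1 against 341 in B0395.3, log2 fold change 0.74 ± 0.05), vit-4 (635 CPM in H28O16.1 against 433 in B0395.3, log2 fold change 0.56 ± 0.04) and vit-5 (9633 CPM in H28O16.1 against 5739.8 in B0395.3, log2 fold change 0.75 ± 0.07) had L4440 means of 969, 970.2, 1132 and 10024 CPM, above both knockdowns. vit-3, vit-4 and vit-5 are near copies. Other intestinal genes moved with them: among the intestine markers 8 of 12 members rose, 2 fell and 2 did not pass the test, with a median log2 fold change of 0.30, and their summed level was 2055 to 2251 CPM in H28O16.1, 1439.6 to 1463 CPM in B0395.3 and 2097 to 2171 CPM in L4440. The part of intestinal RNA content in these values was not tested. For comparison, 30.6% of all genes tested rose and 31% fell. The P-glycoprotein gene pgp-1 (111 CPM in H28O16.1 against 38.6 in B0395.3, log2 fold change 1.53 ± 0.08) and the proton pump gene vha-6 (124 CPM in H28O16.1 against 72.4 in B0395.3, log2 fold change 0.78 ± 0.04) rose, and the peptide transporter gene pept-1 fell (12.9 CPM in H28O16.1 against 33.5 in B0395.3, log2 fold change -1.37 ± 0.07).

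Fatty acid genes were mixed, apart from the peroxisomal list. Of the other carnitine acyltransferase genes, the family to which B0395.3 is related, 2 of 8 members rose, 3 fell and 3 did not pass the test, with a median log2 fold change of 0.01. cpt-6 had 20.2, 20.6 and 22.6 CPM in the H28O16.1 libraries, against 48.8, 50.4 and 48.1 CPM in the B0395.3 libraries (log2 fold change -1.22 with SE 0.06, adjusted p = 2.11e-08), and cpt-3 had 14.4, 17.5 and 21.8 CPM in the H28O16.1 libraries, against 6.17, 6.75 and 6.69 CPM in the B0395.3 libraries (log2 fold change 1.46 with SE 0.14, adjusted p = 4.92e-06). cpt-5 rose as well (10.8 CPM in H28O16.1 against 7.06 in B0395.3, log2 fold change 0.61 ± 0.11). In mitochondrial fatty acid oxidation 7 of 19 members rose, 8 fell and 4 did not pass the test, with a median log2 fold change of 0.07. Its leading members fell: the enoyl-CoA hydratase gene ech-7 (15.3 CPM in H28O16.1 against 42.99 in B0395.3, log2 fold change -1.49 ± 0.07), the acyl-CoA dehydrogenase gene acdh-10 (99.3 CPM in H28O16.1 against 152 in B0395.3, log2 fold change -0.61 ± 0.03) and hacd-1, a hydroxyacyl-CoA dehydrogenase gene (39.8 CPM in H28O16.1 against 80.7 in B0395.3, log2 fold change -1.02 ± 0.07). For all 3 L4440 was above both knockdowns, at 60.2, 161 and 113 CPM. Counted again, 4 rose without B0395.3 replicate 1. In peroxisomal beta-oxidation, which shortens very long chains and ascaroside side chains, most members rose. Of 19 members 12 rose, 0 fell and 7 did not pass the test. At an unadjusted p under 0.05 in edgeR 2 fell, and 0 fell by DESeq2 and 0 by limma-voom. The median log2 fold change was 0.23 and the lowest -0.27. Over all genes tested, 30.6% rose and 31% fell. The acyl-CoA oxidase gene acox-1.4 had 15.8, 17.8 and 17.9 CPM in H28O16.1, against 7.86, 7.79 and 8.43 CPM in B0395.3 (log2 fold change 1.09 with SE 0.08, adjusted p = 6.98e-07). In L4440, acox-1.4 had 16.3, 18.96 and 18.98 CPM, with H28O16.1 overlapping L4440 and B0395.3 below both. pmp-2, a peroxisomal transporter gene (32.9 CPM in H28O16.1 against 17.1 in B0395.3, log2 fold change 0.94 ± 0.06), and acox-1.3 (3.34 CPM in H28O16.1 against 0.454 in B0395.3, log2 fold change 2.86 ± 0.22) rose. In this list 2 fell without H28O16.1 replicate 3 and 1 fell without B0395.3 replicate 1.

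In fatty acid synthesis 10 of 23 members rose, 5 fell and 8 did not pass the test, with a median log2 fold change of 0.12. fat-5, which encodes a delta-9 desaturase of palmitic acid, had 169, 154 and 185 CPM in H28O16.1, against 64.8, 67.1 and 68.3 CPM in B0395.3 (log2 fold change 1.34 with SE 0.06, adjusted p = 1.28e-08). In L4440, fat-5 had 154, 165 and 160.4 CPM. Its low libraries were those of B0395.3. elo-2, a fatty acid elongase gene, had 37.98, 37.97 and 36.8 CPM in H28O16.1, against 78.5, 77.3 and 86.0 CPM in B0395.3 (log2 fold change -1.1 with SE 0.05, adjusted p = 1.63e-08). In L4440, elo-2 had 96.2, 98.4 and 86.8 CPM, so H28O16.1 was low. fat-7, another delta-9 desaturase gene, rose (64.0 CPM in H28O16.1 against 38.7 in B0395.3, log2 fold change 0.73 ± 0.05). Among lipases and fatty acid binding proteins 9 of 26 members rose, 8 fell and 9 did not pass the test, with a median log2 fold change of 0.09. lbp-3 rose (49.7 CPM in H28O16.1 against 21.3 in B0395.3, log2 fold change 1.23 ± 0.06), and lbp-1 (44.4 CPM in H28O16.1 against 112 in B0395.3, log2 fold change -1.33 ± 0.07) and the lipase-like gene lips-11 (24.5 CPM in H28O16.1 against 49.7 in B0395.3, log2 fold change -1.02 ± 0.05) fell. Genes of propionate breakdown, through the cobalamin-dependent route or the shunt that replaces it, mostly rose, and 8 of 12 members rose, 3 fell and 1 did not pass the test, with a median log2 fold change of 0.25. Over all genes tested, 30.6% rose and 31% fell. The list's summed level was 1760 to 1796 CPM in H28O16.1 and 1662 to 1736 CPM in B0395.3. Both were below L4440, at 2390 to 2613 CPM. mce-1 (71.1 CPM in H28O16.1 against 46.0 in B0395.3, log2 fold change 0.63 ± 0.04) and mmaa-1 (132 CPM in H28O16.1 against 105 in B0395.3, log2 fold change 0.33 ± 0.03) act in the cobalamin-dependent route and hach-1 in the shunt (121 CPM in H28O16.1 against 94.9 in B0395.3, log2 fold change 0.35 ± 0.03). The shunt gene acdh-1, picked after its value was seen, had 103, 88.1 and 75.7 CPM in H28O16.1, against 60.5, 39.01 and 50.4 CPM in B0395.3 (log2 fold change 0.83 with SE 0.14, adjusted p = 0.000401). In L4440, acdh-1 had 440.5, 430.1 and 358 CPM, so both knockdowns were far below L4440.

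**Figure D4:**
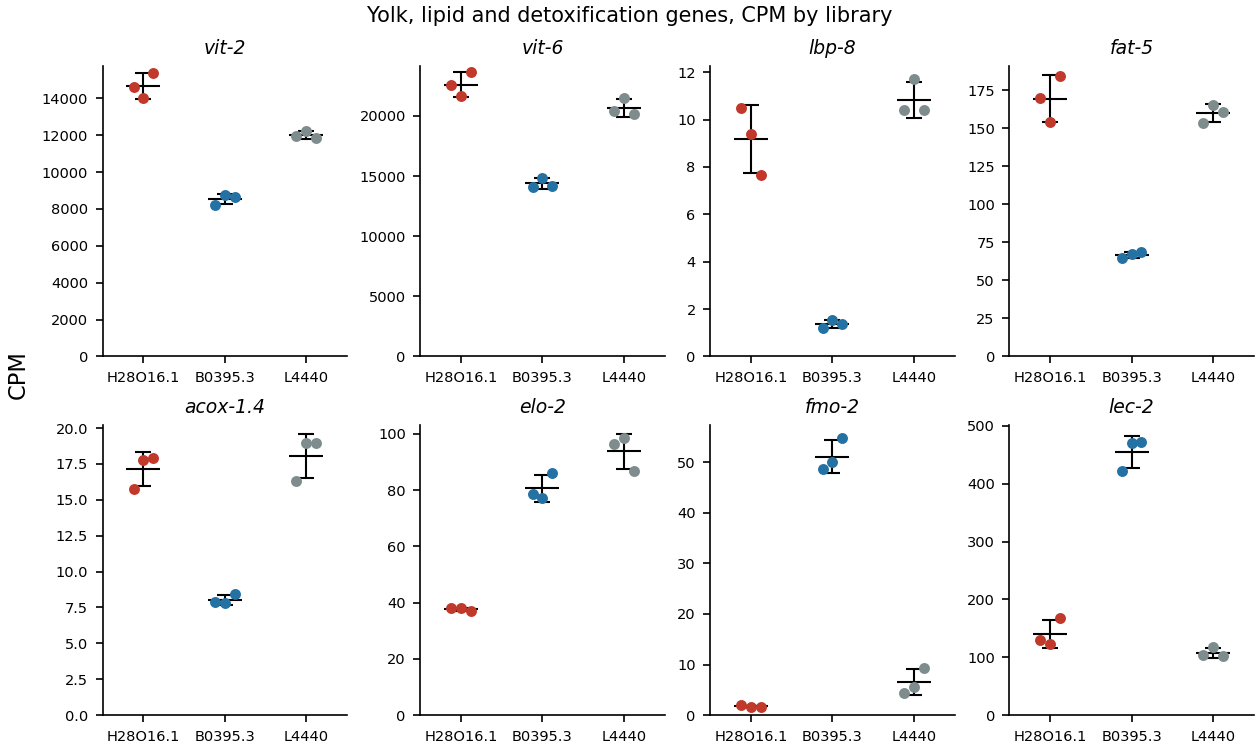
CPM (linear axis from 0) in each library of H28O16.1, B0395.3 and L4440 for 8 genes of yolk, lipid metabolism, detoxification and galectins, with bars at the mean and whiskers of 1 SD. lbp-8, fat-5 and acox-1.4 are low in B0395.3, elo-2 is low in H28O16.1, and fmo-2 and lec-2 are high in B0395.3, at means of 51.1 and 454 CPM.

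Most mitochondrially encoded protein genes fell in H28O16.1, and lists of nuclear respiration genes had medians close to 0. Of the mitochondrially encoded protein genes 0 of 11 members rose, 9 fell and 2 did not pass the test (by edgeR; also 0 at an unadjusted p under 0.05 and by DESeq2 and limma-voom), with a median log2 fold change of -0.66. ATP6, which encodes a subunit of the proton channel of ATP synthase, had 213, 191 and 144 CPM in H28O16.1, against 539, 540.5 and 537 CPM in B0395.3 (log2 fold change -1.56 with SE 0.11, adjusted p = 3.82e-07). In L4440, ATP6 had 647, 636 and 626 CPM. All H28O16.1 libraries were below all others, and replicate 3 was the lowest. The complex I subunit genes ND1 (108 CPM in H28O16.1 against 228 in B0395.3, log2 fold change -1.08 ± 0.10) and ND4 (139 CPM in H28O16.1 against 250.3 in B0395.3, log2 fold change -0.85 ± 0.11) fell. Together these genes took 0.364 ± 0.0648% in H28O16.1, 0.618 ± 0.00443% in B0395.3 and 0.643 ± 0.0136% in L4440 of counts (SD, n = 3 each). The other mitochondrial genes tested were the 2 rRNA genes, picked after their values were seen, and both rose: KEF34_r01 (58.5 CPM in H28O16.1 against 23.2 in B0395.3, log2 fold change 1.33 ± 0.14) and KEF34_r02 (86.9 CPM in H28O16.1 against 46.99 in B0395.3, log2 fold change 0.89 ± 0.12). The share of all rRNA in the libraries was 0.238 ± 0.114% in H28O16.1, 0.241 ± 0.0466% in B0395.3 and 0.0925 ± 0.00845% in L4440. The other ATP synthase subunit genes, all nuclear in this list, changed little: 4 of 16 members rose, 6 fell and 6 did not pass the test, with a median log2 fold change of -0.07. asg-2 had 38.5, 38.6 and 38.7 CPM in the H28O16.1 libraries, against 52.0, 51.7 and 51.8 CPM in the B0395.3 libraries (log2 fold change -0.42 with SE 0.04, adjusted p = 5.1e-06), with asb-2 (86.5 CPM in H28O16.1 against 102 in B0395.3, log2 fold change -0.24 ± 0.04) and asg-1 (153 CPM in H28O16.1 against 184 in B0395.3, log2 fold change -0.27 ± 0.05) also lower. Of its members, 2 rose without B0395.3 replicate 3. Of nuclear complex I genes 11 of 22 members rose, 5 fell and 6 did not pass the test, with a median log2 fold change of 0.08. All were small changes, from -0.23 to 0.31, and 30.6% of all genes tested rose and 31% fell. nduf-9 (157 CPM in H28O16.1 against 130.3 in B0395.3, log2 fold change 0.27 ± 0.03), nduf-11 (259 CPM in H28O16.1 against 209 in B0395.3, log2 fold change 0.31 ± 0.03) and ndub-11 (133 CPM in H28O16.1 against 107 in B0395.3, log2 fold change 0.31 ± 0.04) rose. In complexes II to IV 9 of 26 members rose, 8 fell and 9 did not pass the test, with a median log2 fold change of -0.05. The assembly genes cox-15 (111 CPM in H28O16.1 against 77.8 in B0395.3, log2 fold change 0.51 ± 0.04) and cox-14 (92.4 CPM in H28O16.1 against 65.3 in B0395.3, log2 fold change 0.50 ± 0.04) rose, and mev-1 of complex II fell (56.3 CPM in H28O16.1 against 72.1 in B0395.3, log2 fold change -0.36 ± 0.04). Recounted, 5 fell without H28O16.1 replicate 2 and 4 fell without B0395.3 replicate 2. 75.7% of the exonic length of cox-14 is shared with other genes on its strand.

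Among mitochondrial chaperone, protease and import genes 8 of 21 members rose, 7 fell and 6 did not pass the test, with a median log2 fold change of -0.02. The import channel gene timm-23 had 149.97, 138 and 130.5 CPM in the H28O16.1 libraries, against 85.0, 82.6 and 81.9 CPM in the B0395.3 libraries (log2 fold change 0.75 with SE 0.05, adjusted p = 2.45e-07). ymel-1, an inner membrane protease gene, rose (125 CPM in H28O16.1 against 106 in B0395.3, log2 fold change 0.25 ± 0.04), and atfs-1, which encodes the transcription factor of the mitochondrial unfolded protein response, fell (107 CPM in H28O16.1 against 131 in B0395.3, log2 fold change -0.30 ± 0.03). The chaperone genes of that response, picked after their values were seen, went opposite ways by small amounts, with hsp-6 higher (1236 CPM in H28O16.1 against 975 in B0395.3, log2 fold change 0.34 ± 0.05) and hsp-60 lower (354 CPM in H28O16.1 against 440.4 in B0395.3, log2 fold change -0.31 ± 0.07). Mitochondrial ribosomal protein genes were split, and 20 of 69 members rose, 25 fell and 24 did not pass the test, with a median log2 fold change of 0.01. The leading 3 rose: mrps-11 (148 CPM in H28O16.1 against 86.7 in B0395.3, log2 fold change 0.77 ± 0.04), mrpl-47 (79.4 CPM in H28O16.1 against 50.01 in B0395.3, log2 fold change 0.67 ± 0.04) and mrps-18B (79.0 CPM in H28O16.1 against 53.2 in B0395.3, log2 fold change 0.57 ± 0.04). Cytosolic ribosomal protein genes lay close to 0, and 14 of 72 members rose, 15 fell and 43 did not pass the test, with a median log2 fold change of 0.01. rps-2 (844 CPM in H28O16.1 against 1166 in B0395.3, log2 fold change -0.47 ± 0.05), rps-13 (532 CPM in H28O16.1 against 719 in B0395.3, log2 fold change -0.43 ± 0.07) and rpl-30 (429.9 CPM in H28O16.1 against 532 in B0395.3, log2 fold change -0.31 ± 0.05) fell. Among these, 9 rose without H28O16.1 replicate 1 or 2, 32 rose without H28O16.1 replicate 3, 7 rose without B0395.3 replicate 3 and 25 fell without H28O16.1 replicate 1.

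In glycolysis the rise of aldo-1 was matched by ldh-1, lactate dehydrogenase, and not by the list. ldh-1 had 142, 144 and 144 CPM in H28O16.1, against 52.0, 53.38 and 48.3 CPM in B0395.3 (log2 fold change 1.48 with SE 0.04, adjusted p = 4.56e-10). In L4440, ldh-1 had 61.0, 60.2 and 54.5 CPM, near B0395.3. aldo-2, the second aldolase gene, went the other way (566 CPM in H28O16.1 against 857 in B0395.3, log2 fold change -0.60 ± 0.04). Over the list 5 of 18 members rose, 8 fell and 5 did not pass the test, with a median log2 fold change of -0.04. In gluconeogenesis, the glyoxylate cycle and trehalose metabolism 6 of 12 members rose, 3 fell and 3 did not pass the test, with a median log2 fold change of 0.12. pck-1, phosphoenolpyruvate carboxykinase, had 90.4, 90.9 and 129 CPM in H28O16.1, against 47.2, 52.6 and 47.4 CPM in B0395.3 (log2 fold change 1.08 with SE 0.12, adjusted p = 1.7e-05). In L4440, pck-1 had 97.8, 92.5 and 90.1 CPM, so B0395.3 was low. The trehalose synthase gene tps-2 rose (39.5 CPM in H28O16.1 against 25.6 in B0395.3, log2 fold change 0.62 ± 0.06) and the trehalase gene tre-5 fell (2.04 CPM in H28O16.1 against 5.0 in B0395.3, log2 fold change -1.28 ± 0.13). Of 6 genes for glycerol synthesis and myo-inositol transport, 4 rose and 2 fell. Beside gpdh-1 and hmit-1.1, hmit-1.2 (4.82 CPM in H28O16.1 against 2.52 in B0395.3, log2 fold change 0.95 ± 0.15) and gpdh-3 (227 CPM in H28O16.1 against 194 in B0395.3, log2 fold change 0.22 ± 0.03) rose, and hmit-1.3 (17.998 CPM in H28O16.1 against 22.1 in B0395.3, log2 fold change -0.30 ± 0.08) and gpdh-2 (191 CPM in H28O16.1 against 205 in B0395.3, log2 fold change -0.10 ± 0.03) fell. gpdh-2 did not pass without the low-count filter. In the tricarboxylic acid cycle 7 of 28 members rose, 10 fell and 11 did not pass the test, with a median log2 fold change of -0.02, with the aconitase gene aco-1 lower (82.6 CPM in H28O16.1 against 124 in B0395.3, log2 fold change -0.58 ± 0.04) and sdhb-1 (246 CPM in H28O16.1 against 202 in B0395.3, log2 fold change 0.28 ± 0.03) and ogdh-1 (473 CPM in H28O16.1 against 391.95 in B0395.3, log2 fold change 0.27 ± 0.03) higher. In the methionine cycle and its branches 9 of 20 members rose, 6 fell and 5 did not pass the test, with a median log2 fold change of 0.13. sams-3, an S-adenosylmethionine synthetase gene, had 18.7, 18.5 and 15.6 CPM in the H28O16.1 libraries, against 48.5, 48.7 and 48.2 CPM in the B0395.3 libraries (log2 fold change -1.47 with SE 0.07, adjusted p = 2.18e-08), and cbs-1, cystathionine beta-synthase, had 6.9, 7.32 and 8.8 CPM in the H28O16.1 libraries, against 25.6, 25.9 and 25.02 CPM in the B0395.3 libraries (log2 fold change -1.73 with SE 0.09, adjusted p = 4.44e-08). Both were low in all 3 H28O16.1 libraries, and cth-2, a cystathionine gamma-lyase gene further along the branch, was high (234.6 CPM in H28O16.1 against 123 in B0395.3, log2 fold change 0.93 ± 0.06).

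Conjugating enzymes of detoxification were mostly higher in H28O16.1 than in B0395.3, with summed levels highest in L4440. The glutathione S-transferase sum was 696 to 746 CPM in H28O16.1, 657 to 674 CPM in B0395.3 and 818 to 856 CPM in L4440. The UDP-glucuronosyltransferase sum was 732 to 743, 478 to 487 and 766 to 822 CPM in the same order. Of all genes tested, 30.6% rose and 31% fell, and over 2-fold 5.81% rose and 9.26% fell. Among glutathione S-transferases 23 of 41 members rose, 4 fell and 14 did not pass the test, with a median log2 fold change of 0.36, and 9 rises and 0 falls over 2-fold. gst-10 (10.2 CPM in H28O16.1 against 4.2 in B0395.3, log2 fold change 1.27 ± 0.12), gst-13 (37.7 CPM in H28O16.1 against 19.7 in B0395.3, log2 fold change 0.93 ± 0.09) and gst-36 (22.8 CPM in H28O16.1 against 14.2 in B0395.3, log2 fold change 0.68 ± 0.07) led it. Among UDP-glucuronosyltransferases 36 of 60 members rose, 9 fell and 15 did not pass the test, with a median log2 fold change of 0.54, and 11 rises and 1 fall over 2-fold. ugt-44 had 153, 123 and 123 CPM in H28O16.1, against 46.98, 44.7 and 44.9 CPM in B0395.3 (log2 fold change 1.55 with SE 0.08, adjusted p = 3.37e-08). In L4440, ugt-44 had 101, 91.2 and 99.7 CPM. The groups were separate with L4440 between them. For ugt-22 (53.1 CPM in H28O16.1 against 29.2 in B0395.3, log2 fold change 0.86 ± 0.05) L4440 was above both at 80.9 CPM, and ugt-47 also rose (19.2 CPM in H28O16.1 against 9.62 in B0395.3, log2 fold change 1.0 ± 0.07). Among cytochrome P450 genes 25 of 60 members rose, 14 fell and 21 did not pass the test, with a median log2 fold change of 0.24. cyp-14A5 (22.5 CPM in H28O16.1 against 6.04 in B0395.3, log2 fold change 1.90 ± 0.12) and cyp-13A2 (17.6 CPM in H28O16.1 against 6.98 in B0395.3, log2 fold change 1.33 ± 0.07) rose, and cyp-37B1 fell (5.15 CPM in H28O16.1 against 11.9 in B0395.3, log2 fold change -1.2 ± 0.09).

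Flavin monooxygenase genes were split. fmo-2, a gene known for its induction by hypoxia-inducible factor and dietary restriction, had 1.91, 1.62 and 1.69 CPM in H28O16.1, against 48.5, 49.98 and 54.7 CPM in B0395.3 (log2 fold change -4.87 with SE 0.09, adjusted p = 2.34e-11). In L4440, fmo-2 had 4.43, 5.66 and 9.41 CPM. B0395.3 stood far above L4440, and H28O16.1 below it. Of the other members, fmo-1 (4.62 CPM in H28O16.1 against 1.16 in B0395.3, log2 fold change 1.97 ± 0.25), fmo-3 (19.1 CPM in H28O16.1 against 7.46 in B0395.3, log2 fold change 1.36 ± 0.11) and fmo-4 (18.1 CPM in H28O16.1 against 13.5 in B0395.3, log2 fold change 0.42 ± 0.09) rose and fmo-5 fell (3.52 CPM in H28O16.1 against 7.81 in B0395.3, log2 fold change -1.14 ± 0.14). In the hypoxia-inducible factor pathway 6 of 12 members rose, 3 fell and 3 did not pass the test, with a median log2 fold change of 0.39. cysl-2 (28.7 CPM in H28O16.1 against 17.1 in B0395.3, log2 fold change 0.75 ± 0.07) and sqrd-1 (11.4 CPM in H28O16.1 against 8.16 in B0395.3, log2 fold change 0.49 ± 0.08), of cyanide and sulfide handling, and nhr-57 (7.74 CPM in H28O16.1 against 5.4 in B0395.3, log2 fold change 0.52 ± 0.09) rose. L4440 was above both knockdowns for cysl-2 and sqrd-1, at 40.2 and 13.3 CPM, and below both for nhr-57, at 4.97 CPM. The sum of the list was 241 to 263 CPM in H28O16.1, 229 to 238 CPM in B0395.3 and 271 to 290 CPM in L4440. Among ferritins, metallothioneins and metal transporters 8 of 15 members rose, 3 fell and 4 did not pass the test, with a median log2 fold change of 0.20, with cdr-2 (47.4 CPM in H28O16.1 against 30.5 in B0395.3, log2 fold change 0.63 ± 0.06) and the ferritin gene ftn-2 (225 CPM in H28O16.1 against 177 in B0395.3, log2 fold change 0.35 ± 0.04) higher and the metallothionein gene mtl-1 lower (30.3 CPM in H28O16.1 against 49.9 in B0395.3, log2 fold change -0.72 ± 0.08). Among superoxide dismutases, catalases and peroxiredoxins 6 of 24 members rose, 7 fell and 11 did not pass the test, with a median log2 fold change of 0.08. The glutathione peroxidase genes gpx-3 (0.821 CPM in H28O16.1 against 4.13 in B0395.3, log2 fold change -2.31 ± 0.17) and gpx-5 (33.4 CPM in H28O16.1 against 13.7 in B0395.3, log2 fold change 1.29 ± 0.12) moved in opposite directions, and prdx-2 fell (518 CPM in H28O16.1 against 619 in B0395.3, log2 fold change -0.26 ± 0.03). In refits, 3 rose without H28O16.1 replicate 1 or B0395.3 replicate 1 and 2 rose without B0395.3 replicate 2.

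Most genes of folding in the endoplasmic reticulum and of the proteasome fell, while 31% of all genes tested did. Among chaperones and sensors of the endoplasmic reticulum 3 of 19 members rose, 12 fell and 4 did not pass the test, with a median log2 fold change of -0.22. pdi-2, a protein disulfide isomerase gene that also serves collagen prolyl hydroxylation, had 243, 238 and 279 CPM in the H28O16.1 libraries, against 507, 523 and 508 CPM in the B0395.3 libraries (log2 fold change -1.02 with SE 0.05, adjusted p = 5.54e-08). pdi-6 (159.9 CPM in H28O16.1 against 298 in B0395.3, log2 fold change -0.90 ± 0.03) and the BiP gene hsp-3 (442 CPM in H28O16.1 against 731 in B0395.3, log2 fold change -0.73 ± 0.04) were likewise low in every H28O16.1 library. Among proteasome subunits 1 of 33 members rose, 21 fell and 11 did not pass the test, with a median log2 fold change of -0.15, and the changes were small, as in pbs-5 (180.1 CPM in H28O16.1 against 245 in B0395.3, log2 fold change -0.44 ± 0.04), pbs-7 (243 CPM in H28O16.1 against 319 in B0395.3, log2 fold change -0.39 ± 0.05) and rpn-6.2 (12.3 CPM in H28O16.1 against 19.9 in B0395.3, log2 fold change -0.69 ± 0.07). Counted again, 3 rose without H28O16.1 replicate 3. Cytosolic heat shock genes were split, and 7 of 17 members rose, 6 fell and 4 did not pass the test, with a median log2 fold change of 0.13. The small heat shock genes hsp-12.6 (0.385 CPM in H28O16.1 against 3.53 in B0395.3, log2 fold change -3.19 ± 0.16) and sip-1 (1399.9 CPM in H28O16.1 against 2578 in B0395.3, log2 fold change -0.88 ± 0.06) fell, and so did hsf-1, which encodes the heat shock factor (119.4 CPM in H28O16.1 against 149 in B0395.3, log2 fold change -0.32 ± 0.03).

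Many immune effector genes were higher in H28O16.1, while 30.6% of all genes tested rose and 31% fell. Of 240 listed C-type lectins, sugar-binding proteins many of which respond to pathogens, 55 of 107 members rose, 21 fell and 31 did not pass the test, with a median log2 fold change of 0.48. The falls included the largest change named, in clec-266, which had 18.7, 24.8 and 34.1 CPM in H28O16.1, against 313, 296 and 319 CPM in B0395.3 (log2 fold change -3.57 with SE 0.15, adjusted p = 9.5e-09). In L4440, clec-266 had 151, 149 and 167 CPM. clec-186 rose (120.2 CPM in H28O16.1 against 63.3 in B0395.3, log2 fold change 0.92 ± 0.04) and clec-12 fell (0.994 CPM in H28O16.1 against 5.04 in B0395.3, log2 fold change -2.34 ± 0.13). In this list 10 fell at a minimum count of 50. The summed level of the C-type lectins differed little, at 5664 to 6109 CPM in H28O16.1 and 5375 to 5440 CPM in B0395.3. In L4440 it was 6035 to 6159 CPM. Most epidermal antimicrobial peptide genes rose: 13 of 18 members rose, 1 fell and 4 did not pass the test, with a median log2 fold change of 0.92. cnc-4 had 32.99, 36.0 and 36.2 CPM in H28O16.1, against 12.5, 13.7 and 13.4 CPM in B0395.3 (log2 fold change 1.41 with SE 0.06, adjusted p = 1.76e-08). In L4440, cnc-4 had 32.2, 43.2 and 35.1 CPM. nlp-29, the peptide gene best known for its induction by fungal infection and wounding, had 13.9, 14.2 and 14.3 CPM in H28O16.1, against 5.2, 4.65 and 4.8 CPM in B0395.3 (log2 fold change 1.53 with SE 0.08, adjusted p = 5.93e-08). In L4440, nlp-29 had 13.9, 15.5 and 14.2 CPM. In both the B0395.3 libraries were low and H28O16.1 was close to L4440. nlp-27 rose as well (44.4 CPM in H28O16.1 against 21.4 in B0395.3, log2 fold change 1.05 ± 0.05). Among lysozymes and saposin-like genes 14 of 34 members rose, 9 fell and 11 did not pass the test, with a median log2 fold change of 0.21, with lys-2 (282 CPM in H28O16.1 against 127 in B0395.3, log2 fold change 1.15 ± 0.04) and spp-15 (63.6 CPM in H28O16.1 against 31.7 in B0395.3, log2 fold change 1.01 ± 0.05) higher and ilys-5 lower (372 CPM in H28O16.1 against 649.6 in B0395.3, log2 fold change -0.80 ± 0.04). 42.9% of the exonic length of spp-15 overlaps genes on the other strand. Galectins, which bind galactosides, had 9 rises in 12 genes, 1 fall and 2 that did not pass. The fall, lec-2, had 129, 123 and 168 CPM in H28O16.1, against 422, 469.6 and 472 CPM in B0395.3 (log2 fold change -1.69 with SE 0.10, adjusted p = 1.07e-07). In L4440, lec-2 had 103, 118 and 102 CPM. lec-5 had 154, 164 and 205 CPM in the H28O16.1 libraries, against 61.9, 65.6 and 68.5 CPM in the B0395.3 libraries (log2 fold change 1.42 with SE 0.09, adjusted p = 2.35e-07) and lec-9 rose (88.6 CPM in H28O16.1 against 52.1 in B0395.3, log2 fold change 0.77 ± 0.04).

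Cuticle collagen genes of the col class were split, and most of those named for body shape fell. Over all genes tested, 30.6% rose and 31% fell. Among the col genes 33 of 88 members rose, 36 fell and 19 did not pass the test, with a median log2 fold change of -0.06, and 24 rises and 33 falls over 2-fold, and 156 are listed. Over all genes tested, 5.81% rose and 9.26% fell over 2-fold, so large col changes were frequent in both directions. col-95 had 236, 218 and 252 CPM in H28O16.1, against 73.0, 68.5 and 70.03 CPM in B0395.3 (log2 fold change 1.74 with SE 0.05, adjusted p = 7.25e-10). In L4440, col-95 had 204, 183 and 172 CPM. col-106 (336 CPM in H28O16.1 against 119.3 in B0395.3, log2 fold change 1.5 ± 0.05) and col-101 (199 CPM in H28O16.1 against 55.5 in B0395.3, log2 fold change 1.84 ± 0.06) were also low in B0395.3. Of its members, 14 fell at a minimum count of 50. Of the collagens named for body-shape mutants 0 of 17 members rose, 15 fell and 2 did not pass the test (by edgeR; also 0 at an unadjusted p under 0.05 and by DESeq2 and limma-voom), with a median log2 fold change of -1.4, and the 3 named members were low in both groups. dpy-10 (4.9 CPM in H28O16.1 against 8.3 in B0395.3, log2 fold change -0.76 ± 0.12) and sqt-3 (4.68 CPM in H28O16.1 against 9.11 in B0395.3, log2 fold change -0.96 ± 0.16) fell, and rol-6, with 0 counts in 1 H28O16.1 library, had 0.0265, 0 and 0.0496 CPM in the H28O16.1 libraries, against 0.435, 0.346 and 0.417 CPM in the B0395.3 libraries. Recounted, 5 fell at a minimum count of 50. 49% of the exonic length of dpy-10 is shared with other genes on its strand. Hedgehog-related and patched-related genes, many expressed in epidermis, were mixed, and 19 of 55 members rose, 13 fell and 23 did not pass the test, with a median log2 fold change of -0.04. grd-5 (21.3 CPM in H28O16.1 against 7.76 in B0395.3, log2 fold change 1.46 ± 0.08), grl-4 (7.9 CPM in H28O16.1 against 3.04 in B0395.3, log2 fold change 1.38 ± 0.09) and grd-14 (3.51 CPM in H28O16.1 against 1.23 in B0395.3, log2 fold change 1.52 ± 0.14) rose. Among these, 6 fell at a minimum count of 50 and 21 fell without H28O16.1 replicate 3. Among markers of moulting larvae 2 of 11 members rose, 6 fell and 3 did not pass the test, with a median log2 fold change of -0.71, led by mlt-10 (2.41 CPM in H28O16.1 against 10.5 in B0395.3, log2 fold change -2.11 ± 0.13), nekl-3 (4.47 CPM in H28O16.1 against 3.25 in B0395.3, log2 fold change 0.47 ± 0.12) and noah-1 (14.2 CPM in H28O16.1 against 23.4 in B0395.3, log2 fold change -0.71 ± 0.19). In refits, 1 rose without H28O16.1 replicate 2 or B0395.3 replicate 1 or 2.

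Among insulin-like peptide genes 6 of 27 members rose, 11 fell and 10 did not pass the test, with a median log2 fold change of -0.08. ins-2 (0.816 CPM in H28O16.1 against 7.69 in B0395.3, log2 fold change -3.22 ± 0.17) and ins-34 (1.65 CPM in H28O16.1 against 7.78 in B0395.3, log2 fold change -2.22 ± 0.11) fell, and ins-19 rose (54.01 CPM in H28O16.1 against 17.2 in B0395.3, log2 fold change 1.65 ± 0.11). Counted again, 3 fell at a minimum count of 50. In insulin signalling and its targets 1 of 11 members rose, 5 fell and 5 did not pass the test, with a median log2 fold change of -0.14. lea-1, a gene of a late embryogenesis abundant protein, had 330.2, 312 and 349 CPM in H28O16.1, against 707, 739 and 716 CPM in B0395.3 (log2 fold change -1.13 with SE 0.04, adjusted p = 4.68e-09). In L4440, lea-1 had 1129, 1185 and 1197 CPM, and the groups stood in steps with H28O16.1 lowest. The kinase gene pdk-1 fell too (20.3 CPM in H28O16.1 against 34.7 in B0395.3, log2 fold change -0.77 ± 0.07). In this list 0 rose without H28O16.1 replicate 2 or B0395.3 replicate 1 or 3. Among nuclear hormone receptors 33 of 183 members rose, 52 fell and 98 did not pass the test, with a median log2 fold change of -0.01. nhr-2, active in embryos, had 12.9, 13.8 and 13.6 CPM in the H28O16.1 libraries, against 57.2, 55.0 and 56.4 CPM in the B0395.3 libraries (log2 fold change -2.07 with SE 0.05, adjusted p = 2.59e-10). nhr-6 rose (11.9 CPM in H28O16.1 against 4.0 in B0395.3, log2 fold change 1.58 ± 0.09) and nhr-4 fell (8.28 CPM in H28O16.1 against 16.9 in B0395.3, log2 fold change -1.03 ± 0.07). Most neuropeptide genes did not pass, and 10 of 85 members rose, 8 fell and 67 did not pass the test, with a median log2 fold change of 0.09. nlp-40, which encodes an intestinal peptide that times defecation (141 CPM in H28O16.1 against 102 in B0395.3, log2 fold change 0.47 ± 0.04), nlp-39 (15.9 CPM in H28O16.1 against 7.83 in B0395.3, log2 fold change 1.02 ± 0.08) and nlp-20 (14.7 CPM in H28O16.1 against 9.03 in B0395.3, log2 fold change 0.71 ± 0.09) rose. Of its members, 3 fell without B0395.3 replicate 3 or at a minimum count of 50, 5 fell without H28O16.1 replicate 2 or B0395.3 replicate 1 and 4 fell without B0395.3 replicate 2.

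Genes of the RNAi machinery were counted as well, since both groups were under RNAi. For comparison, 61.5% of all genes tested differed between the groups. Among genes of uptake and dicing of double-stranded RNA 4 of 21 members rose, 13 fell and 4 did not pass the test, with a median log2 fold change of -0.12, with mut-16 (131 CPM in H28O16.1 against 178 in B0395.3, log2 fold change -0.44 ± 0.03) and rde-12 (170.3 CPM in H28O16.1 against 209 in B0395.3, log2 fold change -0.30 ± 0.03) lower and rde-8 higher (136 CPM in H28O16.1 against 109 in B0395.3, log2 fold change 0.32 ± 0.04). Among Argonautes and RNA-dependent polymerases 8 of 21 members rose, 10 fell and 3 did not pass the test, with a median log2 fold change of -0.14. The Argonaute gene nrde-3, of nuclear RNAi, had 50.8, 56.6 and 63.2 CPM in the H28O16.1 libraries, against 112, 111 and 115 CPM in the B0395.3 libraries (log2 fold change -0.98 with SE 0.06, adjusted p = 3.04e-07). alg-2, an Argonaute gene of the microRNA pathway (67.1 CPM in H28O16.1 against 122 in B0395.3, log2 fold change -0.86 ± 0.04), and the polymerase gene rrf-1 (83.5 CPM in H28O16.1 against 123 in B0395.3, log2 fold change -0.56 ± 0.04) fell. Recounted, 5 rose without B0395.3 replicate 1. Whether these levels bear on the strength of either knockdown was not tested.

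Tissue markers did not move together. For comparison, 30.6% of all genes tested rose and 31% fell, and the epidermis markers lay near these shares. Body wall muscle genes were higher in H28O16.1, where 11 of 14 members rose, 0 fell and 3 did not pass the test (by edgeR; also 0 at an unadjusted p under 0.05 and by DESeq2 and limma-voom), with a median log2 fold change of 0.75. Their summed level was 1272 to 1769 CPM in H28O16.1, 735 to 808 CPM in B0395.3 and 1120.0 to 1351 CPM in L4440. pat-10, a troponin C gene, had 293, 309.7 and 319 CPM in H28O16.1, against 137, 134 and 133 CPM in B0395.3 (log2 fold change 1.19 with SE 0.04, adjusted p = 8.02e-10). In L4440, pat-10 had 226, 210.1 and 189 CPM. The troponin genes mup-2 (49.8 CPM in H28O16.1 against 25.9 in B0395.3, log2 fold change 0.95 ± 0.06) and unc-27 (134 CPM in H28O16.1 against 58.7 in B0395.3, log2 fold change 1.19 ± 0.10) rose, and so did unc-54, the main body wall myosin heavy chain gene, picked after its value was seen (263 CPM in H28O16.1 against 130.4 in B0395.3, log2 fold change 1.02 ± 0.18). Pharynx markers went the other way: 0 of 10 members rose, 7 fell and 3 did not pass the test (by edgeR; also 0 at an unadjusted p under 0.05 and by DESeq2 and limma-voom), with a median log2 fold change of -0.50. Their sum was 54.7 to 72.6 CPM in H28O16.1, 85.4 to 92.2 CPM in B0395.3 and 66.3 to 69.97 CPM in L4440, with tnc-2 (4.98 CPM in H28O16.1 against 7.58 in B0395.3, log2 fold change -0.61 ± 0.09), tnt-4 (1.72 CPM in H28O16.1 against 3.9 in B0395.3, log2 fold change -1.17 ± 0.18) and tni-4 (20.3 CPM in H28O16.1 against 25.4 in B0395.3, log2 fold change -0.32 ± 0.06) lower. Of neuron markers most did not pass, and 2 of 19 members rose, 3 fell and 14 did not pass the test, with a median log2 fold change of -0.03. unc-119 (8.6 CPM in H28O16.1 against 16.3 in B0395.3, log2 fold change -0.92 ± 0.09), the dopamine synthesis gene cat-2 (0.185 CPM in H28O16.1 against 0.96 in B0395.3, log2 fold change -2.38 ± 0.28) and the synaptic gene unc-10 (1.93 CPM in H28O16.1 against 2.91 in B0395.3, log2 fold change -0.57 ± 0.21) fell, the last a call that was lost in several fits with 1 library left out. Among these, 1 rose at a minimum count of 50, 0 rose without H28O16.1 replicate 2 or 3 or B0395.3 replicate 1 or 2 and 8 fell without H28O16.1 replicate 3. Among epidermis markers 4 of 11 members rose, 3 fell and 4 did not pass the test, with a median log2 fold change of 0.07. The adult collagen gene col-19 (41.0 CPM in H28O16.1 against 24.8 in B0395.3, log2 fold change 0.72 ± 0.08) and nhr-23 (81.2 CPM in H28O16.1 against 68.1 in B0395.3, log2 fold change 0.26 ± 0.04) rose, and rol-6, given above, fell. Male markers were near the limit of detection. cwp-4 rose (0.917 CPM in H28O16.1 against 0.309 in B0395.3, log2 fold change 1.56 ± 0.29), trf-1 (0.349 CPM in H28O16.1 against 0.185 in B0395.3, log2 fold change 0.94 ± 0.53), her-1 (0.977 CPM in H28O16.1 against 1.21 in B0395.3, log2 fold change -0.32 ± 0.20), klp-6 (0.599 CPM in H28O16.1 against 0.787 in B0395.3, log2 fold change -0.37 ± 0.30) and mab-3 (0.339 CPM in H28O16.1 against 0.378 in B0395.3, log2 fold change -0.15 ± 0.30) did not pass, and trf-1 passed without H28O16.1 replicate 2. In refits, 0 rose at a minimum count of 50 and 2 rose without H28O16.1 replicate 2.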

How the data were processed

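RNA of 9 libraries was deposited as whole-number counts per gene, with no normalization by the authors, and the 6 H28O16.1 and B0395.3 libraries were compared. The submitters' processing notes list STAR 2.4.1d, featureCounts 1.4.6-p4, bcl2fastq 1.8.4 and, as genome build, WBcel235. The sources used here do not give their parameters or the annotation release, so how reads of near-identical genes were counted is unknown. Per the labels' protocols the kit was Illumina TruSeq RNA v2, which enriches poly(A) RNA without keeping the strand, so antisense partners cannot be told apart. A deposited table of length-scaled values was not used.

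Names and coordinates came from the Ensembl 115 annotation of WBcel235, which holds all but 299 of 46748 gene identifiers (103 of these were tested). edgeR's filterByExpr at a minimum count of 10 left 14379 genes and took out 32369, or 0.0385% to 0.0526% of each library's counts. The test was that of edgeR 4.0.16 in R 4.3.3 (TMM scaling, quasi-likelihood fit to the 6 libraries, two-sided F-test), with Benjamini-Hochberg adjustment over all genes tested and a threshold of 0.05. With 3 libraries a group, the smallest p of an exact permutation test would be 0.1, and none was run on single genes. L4440 levels were put on the same scale and not tested. Log2 fold changes are H28O16.1 over B0395.3. Libraries of a group differed by a chi-square per degree of freedom of 2.58 to 17.1 over genes, so none was counted as a repeat of another. The fit was tested on simulated data.

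The comparison, the 61 gene lists and the rule for named genes were chosen with earlier results of these data known. The rule names both targets, the 10 largest rises and falls (adjusted p under 0.05, averaging 5 CPM or more, groups apart) and, from each list, the 3 members with the smallest p, or all where 6 or fewer were measured. 1 gene that this rule names is not reported here. Lists are described by counts and medians and have no test. Replicate numbers follow the order of the records and pair nothing. Alternatives included DESeq2 1.42.0, limma 3.58.1 and leaving out each library.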

Additional observations from a re-analysis of the deposited data

How the results depend on the processing

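Across 16 alternatives no gene called in the main test turned its sign. The number of genes called was 8849 in the main test, 8823 with DESeq2 size factors in edgeR, 8780 with library totals alone, 8695 with upper quartile scaling, 7816 with DESeq2, 8806 with limma-voom, 9158 with all 9 libraries in the fit, 9475 of 23799 without the low-count filter and 7071 at an adjusted p under 0.01. With a minimum count of 50 fewer genes were tested (11224), and 538 rose and 833 fell over 2-fold, against 836 and 1331. Tested against a fold change of 1.5, a stricter null, 2513 genes were called, 1014 higher and 1499 lower. With 1 library left out, 7843 to 9389 genes were called, of which 3769 to 4650 rose and 4052 to 4739 fell, and 819 to 928 rose and 1326 to 1515 fell over 2-fold. Upper quartile scaling shifted the median log2 fold change to -0.03 and the share of called genes that rose to 44.4%, from 49.7%. Of 204 named genes 200 were called, and 70 changed their call under at least 1 alternative, nearly all under the test against a fold of 1.5. Of 1952 list counts recomputed, 196 moved by over 1.5 times, mostly in that test, in lists of few calls or, with the minimum count of 50, in lists of low level. No paired analysis was possible because the labels give no replicate numbers that the groups share, and the order of the records was not used to pair libraries. Depth limits the genes near the filter, such as rol-6 and the male markers.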

Other observations

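Gene families were also read by their shared symbol, whether or not a list held some of their members. There were 189 families with at least 8 tested genes, the ones given here were picked after their values were seen, and none has a test. For comparison, 30.6% of all genes tested rose and 31% fell. All 11 aspartyl protease genes (asp), many of them intestinal and 1 of them (asp-1) among the intestine markers, rose, with a median log2 fold change of 0.94, and their summed level was 4007 to 4481 CPM in H28O16.1, 2741 to 2863 CPM in B0395.3 and 4197 to 4359 CPM in L4440. Of 47 transthyretin-related genes (ttr), secreted proteins of mostly unknown role, 37 rose and 2 fell (median 0.68), with sums of 3296 to 3416 CPM in H28O16.1, 2344 to 2435 CPM in B0395.3 and 2698 to 2797 CPM in L4440. Of 8 genes of fatty acid and retinol binding proteins (far), 6 rose and 1 fell (median 0.81), and the sums were 4437 to 5599 CPM in H28O16.1, 2377 to 2676 CPM in B0395.3 and 3204 to 3593 CPM in L4440. In the nspc family 13 of 14 genes rose (median 0.60).

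On the other side, 11 of 12 T-box transcription factor genes (tbx) fell and 0 rose (by edgeR; also 0 at an unadjusted p under 0.05 and by DESeq2 and limma-voom). Of these, tbx-37 and tbx-38 are also in the early zygotic list. The family had a median of -3.0, and its summed level was 68.7 to 70.9 CPM in H28O16.1, 159.6 to 161 CPM in B0395.3 and 128 to 133 CPM in L4440. All 8 SR protein genes (rsp), which act in pre-mRNA splicing, fell by small amounts (median -0.30). Over all genes tested, 31% fell. mls-2, a homeobox gene picked after its value was seen, had 0.345, 0.541 and 0.595 CPM in the H28O16.1 libraries, against 15.6, 15.2 and 15.1 CPM in the B0395.3 libraries, and its L4440 mean was 3.33 CPM (log2 fold change -4.95 with SE 0.14, adjusted p = 5.89e-10). ceh-32, another homeobox gene picked in the same way, stood at 3.56 CPM in H28O16.1 against 71.4 in B0395.3, log2 fold change -4.34 ± 0.10.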
